A study of Drosophila melanogaster with 12 samples.

Results

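The introns described here are the 2643 clean introns of at least 100 nt among the 17817 introns of the authors' intron table for Drosophila melanogaster wing discs. They were chosen by 2 properties that are independent of the measured values. The identifier in the table gives the class of each intron, and the class had to read clean and nothing else, with no known exon and no antisense feature noted. The length, taken as end minus start, had to be 100 nt or more. The table holds 5236 clean introns, so these are the long ones of that class, beside 1714 clean introns of 60 to 99 nt and 879 shorter than 60 nt. No intron of the X chromosome is in the table that was analysed here.

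A wing imaginal disc is a larval epithelium that gives rise to the wing blade, the hinge and the dorsal thorax of the fly. Each sample pooled 150 discs of third-instar larvae at 7 days after egg laying, and there were 4 samples in each of 3 groups, which the labels call biological replicates. In the group ecd plus Xrp1 RNAi, nub-Gal4 drove UAS-mRFP, RNAi against ecd and RNAi against Xrp1. In the ecd RNAi group the same driver and reporter were combined with RNAi against ecd alone, and control discs carried nub-Gal4 and UAS-mRFP without RNAi. All 12 samples therefore shared the driver and the red fluorescent reporter, and a group with Xrp1 RNAi alone was not analysed here. The nub-Gal4 driver acts mainly in the pouch, the future wing blade, so each pool also contained disc tissue in which no RNAi was driven. In such pooled tissue, fewer cells of a type and less RNA per cell cannot be told apart.

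The product of ecd (ecdysoneless) binds Prp8, which sits at the heart of the spliceosome, and that of Xrp1 is a bZIP transcription factor of the stress response. Splicing removes an intron through a 5′ splice site, a branch point and a 3′ splice site. In short introns, which are the most common kind in flies, the spliceosome is thought to pair the splice sites across the intron itself. In long introns, it pairs them first across the neighbouring exon. Long introns of flies are also often the first introns of a gene and carry enhancers. How introns of the long kind fare when a partner of Prp8 is depleted is the question that the comparisons below address.

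The measured quantity is the retention ratio, which the authors deposited for each intron as a group mean between 0 and 1 and which is printed here as a percent. As such ratios are usually defined, 0% stands for transcripts that all lack the intron and 100% for transcripts that all keep it. The authors' deposited table gives no spread for these means that could be tied to the samples, so they are printed without an SD, and whether an intron changed is taken from the adjusted p-value of that table at a threshold of 0.05. Differences are in percentage points. The ecd transcript was not lower in the discs labelled ecd RNAi. Its normalized counts were 1825, 1766, 1696 and 1699 in ecd plus Xrp1 RNAi libraries, 1982, 1687, 1423 and 1521 in ecd RNAi libraries, and 1654, 1494, 1421 and 1420 in control libraries. The ecd RNAi libraries overlap with both other groups, while all ecd plus Xrp1 RNAi libraries lie above all control libraries. For ecd RNAi against control, limma gave a log2 fold change of 0.13 ± 0.09 (SE, n = 4 each) with an adjusted p of 0.251. For ecd plus Xrp1 RNAi against control, limma gave 0.22 ± 0.09 (SE, n = 4 each) with an adjusted p of 0.183. Directions therefore rest on the labels. Xrp1 itself averaged 5084 ± 772 in ecd plus Xrp1 RNAi discs, 20882 ± 1745 in ecd RNAi discs and 4812 ± 252 in controls (SD, n = 4 each). It rose with ecd RNAi against control (adjusted p = 3.52e-09, limma) and was lower with added Xrp1 RNAi than with ecd RNAi alone (adjusted p = 5.67e-09, limma).

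The 2643 introns lie in 970 genes. In 419 of these genes a single intron belongs to the set, while 154 genes with 5 or more contribute 1156 introns. Lengths run from 100 to 63750 nt with a median of 814 nt and quartiles of 284 and 2739 nt. They are not all independent of each other: 592 share a splice site with another member, 611 overlap another member, and 218 have the same deposited group means and mean count as another member. By arm, 497 lie on 2L, 616 on 2R, 649 on 3L, 852 on 3R and 29 on chromosome 4. By position in the transcript the table names, 663 are first introns, 1703 internal, 236 last and 41 the only intron. By the Ensembl annotation of BDGP6, 605 interrupt a 5′ UTR, 2014 the coding sequence and 24 a 3′ UTR. Although all are classed as clean, 733 of them overlap an annotated exon of the same strand in that annotation, 10 one of the opposite strand.

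As a group, long clean introns had nearly the same typical level in the 3 groups of discs. Their median retention ratio was 8.11% with ecd plus Xrp1 RNAi, 8.01% with ecd RNAi and 8.05% in controls. The quartiles were 5.25% and 13.3% with ecd plus Xrp1 RNAi, 5.20% and 12.8% with ecd RNAi, and 5.22% and 13.8% in controls. Over all 17817 introns, the medians were 7.89%, 8.08% and 7.02% in the same order of groups, so that over the whole table the control median was the lowest. Clean introns of 60 to 99 nt had medians of 5.94% with ecd plus Xrp1 RNAi, 6.02% with ecd RNAi and 5.19% in controls. Those under 60 nt had 6.93%, 7.41% and 5.51% in that order.

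Intron by intron, the median difference between ecd RNAi and control was −0.06 points in the long clean introns, against 0.94 points over all introns. It was 0.98 points in clean introns of 60 to 99 nt and 1.67 points in those under 60 nt. A higher mean ratio with ecd RNAi than in controls was found for 1285 long clean introns (48.6%), a lower one for 1355 and an equal one for 3. Over all introns the share with the higher ratio was 64.0%, in clean introns of 60 to 99 nt 64.7%, and in those under 60 nt 72.2%. Between ecd plus Xrp1 RNAi and control the median difference was 0.01 points in long clean introns and 0.70 points over all introns. Between the groups with both RNAi lines and with ecd RNAi alone it was 0.11 points in long clean introns, against −0.19 points over all introns. These are descriptions of deposited means, and no test of a difference between length classes was run.

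**Figure D1:**
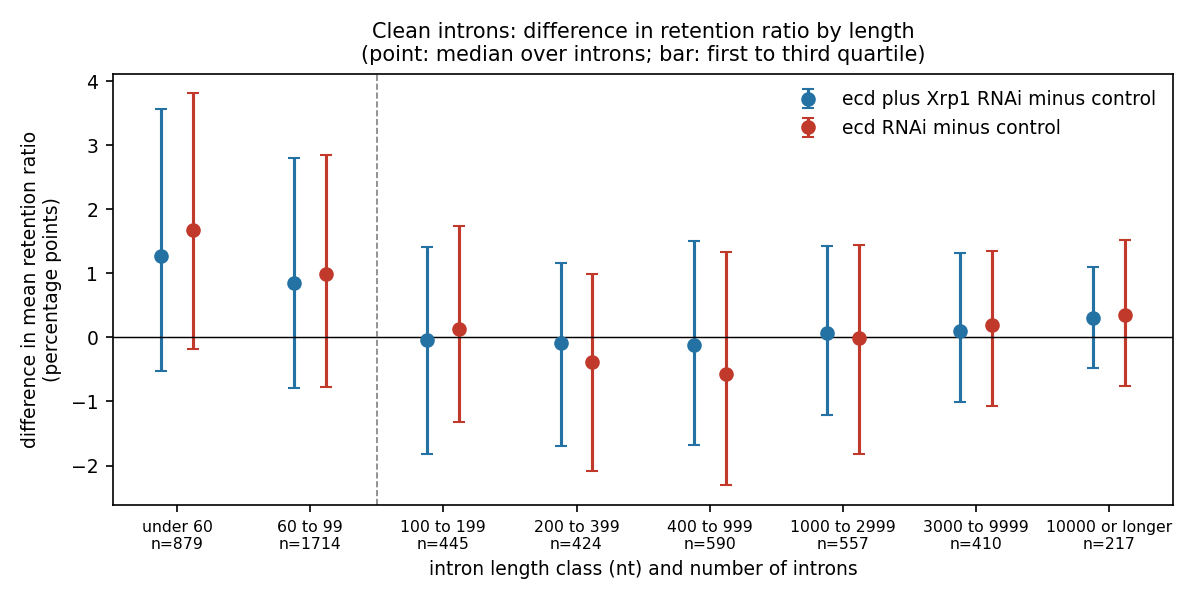
Difference in mean retention ratio (y axis, percentage points) by length of the clean intron (x axis, nt, with the number of introns in each class), for ecd plus Xrp1 RNAi minus control in blue and ecd RNAi minus control in red. Points are medians over introns and bars run from the first to the third quartile; the dashed line marks 100 nt. The medians for ecd RNAi are 1.67 and 0.98 points to the left of the line and lie between −0.57 and 0.34 points to its right.

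Within the long clean introns the difference was not a steady function of length. Introns of 100 to 199 nt had a median difference between ecd RNAi and control of 0.13 points and a higher ratio with ecd RNAi in 51.7% of 445 introns. The median was −0.39 points in 424 introns of 200 to 399 nt and −0.57 points in 590 introns of 400 to 999 nt, where 41.0% had the higher ratio with ecd RNAi. It was −0.01 points in 557 introns of 1000 to 2999 nt, 0.20 points in 410 introns of 3000 to 9999 nt and 0.34 points in 217 introns of 10000 nt or longer, of which 59.4% had the higher ratio with ecd RNAi. The control level varied along the same axis, with medians of 6.34%, 7.14%, 9.62%, 9.51%, 7.68% and 8.09% in these 6 classes from short to long. Just inside the length limit, 25 introns of 100 to 104 nt had a median difference of −0.41 points, and just outside it 37 clean introns of 95 to 99 nt had 0.86 points.

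Position in the gene went with both the level and the difference. First introns had median ratios of 11.6% with ecd plus Xrp1 RNAi, 11.9% with ecd RNAi and 11.4% in controls, and internal introns had 7.53%, 7.38% and 7.69% in that order. The median difference between ecd RNAi and control was 0.44 points in first introns and −0.26 points in internal ones, with a higher ratio in ecd RNAi discs for 57.0% and 44.7% of them. Introns of 5′ UTRs had the same pattern, with medians of 12.04% with ecd plus Xrp1 RNAi, 12.12% with ecd RNAi and 11.47% in controls, a median difference of 0.63 points and 60.5% higher with ecd RNAi. Coding introns had 7.55%, 7.31% and 7.64% in that order and a median difference of −0.25 points. Many 5′ UTR introns are first introns, so these groupings overlap. The 733 members that overlap an annotated exon of their own strand had higher ratios, at 9.95% with ecd plus Xrp1 RNAi, 9.37% with ecd RNAi and 9.95% in controls, than the 1910 that do not, at 7.60%, 7.55% and 7.65%.

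Large differences in the deposited means were rarer upwards than in the whole table. A ratio at least 10 points higher with ecd RNAi than in controls was found for 31 long clean introns (1.17%), against 30 that were at least 10 points lower. Over all introns 746 (4.19%) were at least 10 points higher and 187 at least 10 points lower. At 20 points the numbers in long clean introns were 5 higher and 1 lower. In ecd plus Xrp1 RNAi discs against control, 18 were at least 10 points higher and 10 at least 10 points lower.

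In the authors' deposited table, 8 long clean introns (0.303%) passed the threshold for ecd RNAi against control, 6 higher and 2 lower, where 2.32% of all introns in that table passed (413 introns). By direction, 2.18% of all introns were called higher (388) and 0.14% lower (25). By the same table, 26 clean introns of 60 to 99 nt (1.52%) and 18 of those under 60 nt (2.05%) passed, all of them higher with ecd RNAi. With ecd plus Xrp1 RNAi against control, 2 long clean introns passed in the authors' deposited table, both higher, beside 1.26% of all introns (224), of which 1.19% were higher and 0.0674% lower. Between the RNAi groups, 2 passed in the authors' deposited table, both higher with added Xrp1 RNAi than with ecd RNAi alone, beside 0.208% of all introns (37), of which 0.0786% were higher and 0.129% lower. That table holds adjusted p-values only.

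**Figure D2:**
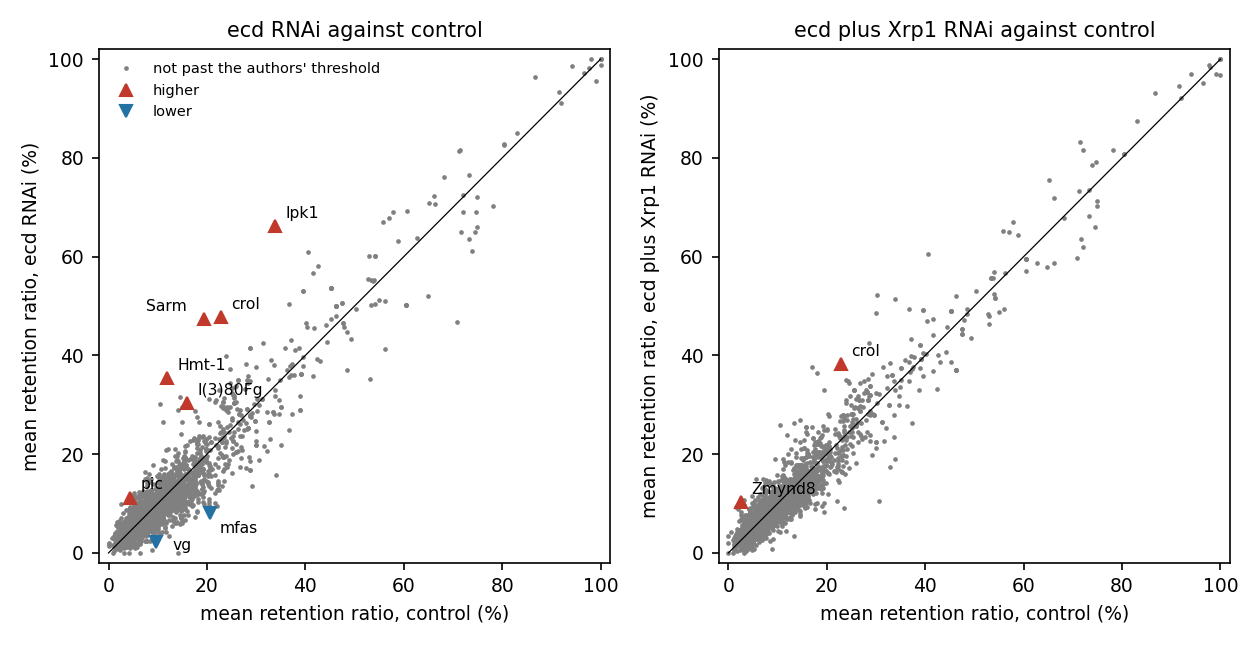
Mean retention ratio of each of the 2643 long clean introns in RNAi discs (y axis, %) against the ratio in control discs (x axis, %), with ecd RNAi on the left and ecd plus Xrp1 RNAi on the right; the line marks equal ratios. Triangles are introns past the authors' threshold, 8 on the left and 2 on the right, and the other points scatter on both sides of the line.

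Introns were also grouped by the reads behind them. The mean count that the authors deposited for each intron had a median of 40.4 in long clean introns, 35.5 in clean introns of 60 to 99 nt and 35.2 in those under 60 nt. The 357 long clean introns with a mean count of at least 100 had a median difference between ecd RNAi and control of 0.40 points, 62.5% of them were higher with ecd RNAi, and 0.840% passed in the authors' deposited table. Among the 194 clean introns under 100 nt with a mean count of at least 100 the median was 1.47 points, 86.1% were higher with ecd RNAi, and 8.25% passed in the same table. The 911 long clean introns with a mean count under 30 had a median of −0.41 points, 44.1% of them were higher with ecd RNAi, and 0.220% passed in that table. The 1375 with a mean count of 30 to 99 had a median of −0.07 points, 48.0% were higher with ecd RNAi, and 0.218% passed in that table. Long introns near an antisense feature, 2912 of at least 100 nt, had a median difference of 0.49 points, and 1.06% of them passed in the authors' deposited table.

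The 6 introns with higher retention come from genes of unlike function. Intron 2 of the 8 of Ipk1 had the widest difference. Ipk1 encodes a kinase that makes inositol hexakisphosphate. The intron has 534 nt and lies within the coding sequence on chromosome arm 2R, positions 20872006 to 20872539 of BDGP6 on the plus strand. Its mean ratio was 51.4% with ecd plus Xrp1 RNAi, 66.2% with ecd RNAi and 33.9% in controls, and the adjusted p for ecd RNAi against control was 0.0368 in the authors' deposited table. The mean count behind it was 10.4, the lowest of the 6. Other introns of Ipk1 also belong to the set, and its intron 4 of 1486 nt stood at 25.8% with ecd plus Xrp1 RNAi, 30.2% with ecd RNAi and 10.4% in controls without passing (adjusted p = 0.116 in the authors' deposited table).

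Sarm, the fly form of the NAD-cleaving enzyme that drives axon degeneration, followed with intron 7 of 9. It is a coding intron of 143 nt on arm 3L, positions 8105297 to 8105439 on the plus strand. Its ratio was 33.1% with ecd plus Xrp1 RNAi, 47.3% with ecd RNAi and 19.5% in controls (adjusted p = 0.00515 for ecd RNAi against control, the authors' deposited table). Among the 61 other introns of the 9 host genes named in these paragraphs, 1 passed for ecd RNAi against control in that table, and it too lies in Sarm. It is a clean intron of 64 nt at 9.24% with ecd plus Xrp1 RNAi, 27.4% with ecd RNAi and 3.39% in controls. The Sarm introns did not move as one, since a clean intron of 1336 nt had 78.6% with ecd plus Xrp1 RNAi, 61.2% with ecd RNAi and 73.8% in controls (adjusted p = 0.689, the authors' deposited table).

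Intron 3 of the 7 of crol was the best measured of the called introns, with a mean count of 206. The gene crol (crooked legs) encodes a zinc-finger protein needed at metamorphosis. The intron is just over the length limit at 110 nt and lies in the 5′ UTR on arm 2L, positions 11803675 to 11803784 on the minus strand. Its ratio was 38.2% with ecd plus Xrp1 RNAi, 47.7% with ecd RNAi and 22.8% in controls. It is the one long clean intron that passed against control in both RNAi groups, with an adjusted p of 0.000131 for ecd plus Xrp1 RNAi and 2.23e-11 for ecd RNAi in the authors' deposited table. Its difference between ecd plus Xrp1 RNAi and ecd RNAi, −9.46 points, did not pass (adjusted p = 0.572, the authors' deposited table). The 8 other crol introns in the table differed by −0.67 to 3.36 points between ecd RNAi and control.

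In Hmt-1, which encodes an ABC transporter of the heavy-metal tolerance type, the first of 5 introns passed. It has 376 nt and lies in the 5′ UTR on arm 3R, positions 15856954 to 15857329 on the minus strand. Its ratio was 23.9% with ecd plus Xrp1 RNAi, 35.3% with ecd RNAi and 11.9% in controls (adjusted p = 0.000192 for ecd RNAi against control, the authors' deposited table). The 4 other Hmt-1 introns, all clean and between 55 and 63 nt, were 1.97 to 4.34 points higher with ecd RNAi and none passed.

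The longest intron with a called rise was intron 2 of the 12 of l(3)80Fg, at 1929 nt. It lies in the 5′ UTR on arm 3L, positions 26008178 to 26010106 on the minus strand. Its ratio was 24.2% with ecd plus Xrp1 RNAi, 30.3% with ecd RNAi and 16.02% in controls (adjusted p = 0.0366 for ecd RNAi against control, the authors' deposited table). The same gene holds clean introns of 27949, 35392 and 49911 nt, whose ratios were between 4.04% and 4.70% with ecd RNAi and between 1.26% and 3.96% in controls, and none of them passed. The intron of 35392 nt contains the called intron, so it is not separate from it.

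The smallest of the 6 differences was in pic, which encodes the fly DDB1, an adaptor of Cul4 ubiquitin ligases. Its first of 6 introns has 153 nt, within the coding sequence on arm 3R, positions 13052470 to 13052622 on the plus strand. The ratio was 8.98% with ecd plus Xrp1 RNAi, 11.2% with ecd RNAi and 4.33% in controls (adjusted p = 0.00412 for ecd RNAi against control, the authors' deposited table). In all 6 introns the mean with ecd plus Xrp1 RNAi lay between those of ecd RNAi and control. None of the 6 passed between the RNAi groups, where their adjusted p ran from 0.572 to 0.957 in the authors' deposited table, so these data do not separate the RNAi groups for them.

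**Figure D3:**
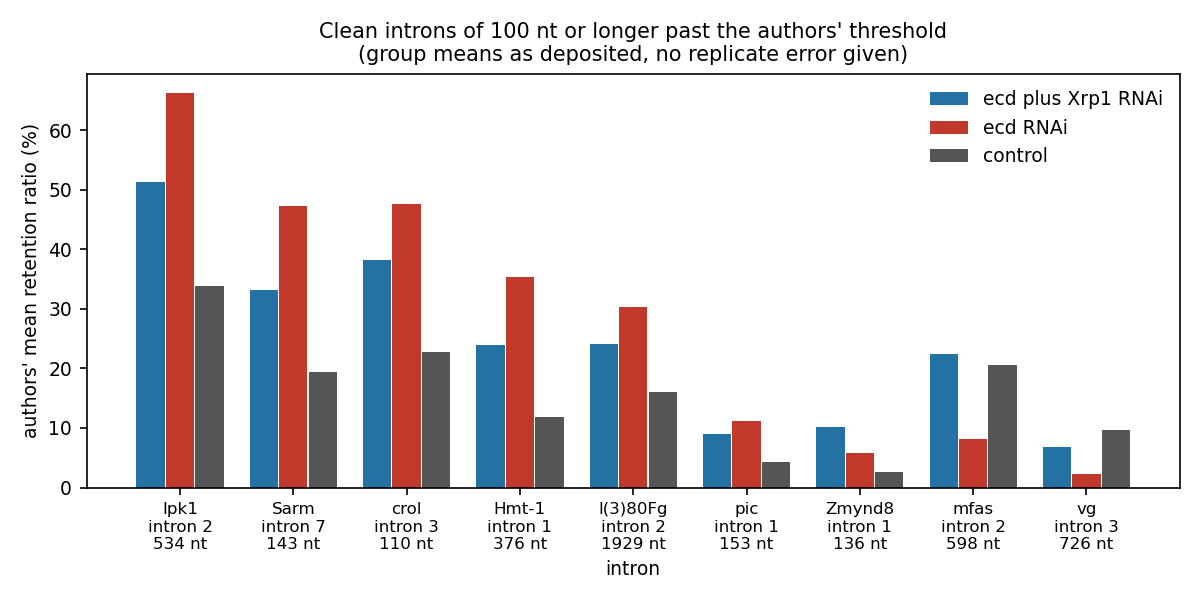
Mean retention ratio (y axis, %) of the 9 long clean introns past the authors' threshold in any comparison (x axis), as deposited group means for ecd plus Xrp1 RNAi in blue, ecd RNAi in red and control in grey, without error bars since none could be tied to the samples. In the first 6 introns the ecd RNAi bar is the highest and the control bar the lowest, while in mfas and vg the ecd RNAi bar is the lowest.

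Lower retention with ecd RNAi was called in 2 genes. The first is mfas (midline fasciclin), which encodes a cell adhesion protein. Its coding intron 2 of 9 has 598 nt on arm 3R, positions 11992144 to 11992741 on the minus strand. The ratio was 22.5% with ecd plus Xrp1 RNAi, 8.18% with ecd RNAi and 20.5% in controls. In the authors' deposited table the adjusted p was 0.0135 for ecd RNAi against control and 0.0105 for ecd plus Xrp1 RNAi against ecd RNAi, while the comparison of ecd plus Xrp1 RNAi with control gave 0.927. All 5 long clean introns of mfas had a lower mean ratio with ecd RNAi than in controls. The introns of 3413 and 3218 nt contain the called intron and share its 5′ splice site, so they are not separate from it. Both carry the same values, 16.2% with ecd plus Xrp1 RNAi, 7.11% with ecd RNAi and 14.8% in controls. The intron of 410 nt had 4.93%, 1.01% and 5.36%, and that of 1281 nt 5.80%, 1.49% and 5.03%, in the same order of groups. These 4 introns did not pass, with adjusted p from 0.0979 to 0.188 in the authors' deposited table. Of all 10 other mfas introns in the table, long clean or not, 4 were higher with ecd RNAi than in controls, by up to 9.34 points.

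The second is vg (vestigial), the selector of wing fate that acts with scalloped. Its coding intron 3 of 7 has 726 nt on arm 2R, positions 12891948 to 12892673 on the plus strand. The ratio was 6.80% with ecd plus Xrp1 RNAi, 2.27% with ecd RNAi and 9.64% in controls. In the authors' deposited table the adjusted p was 2.28e-05 for ecd RNAi against control and 0.0190 between the RNAi groups. The comparison of ecd plus Xrp1 RNAi with control did not pass (adjusted p = 0.573, the authors' deposited table). The other 6 vg introns in the table, of which 5 are long and clean, differed by −1.04 to 5.21 points between ecd RNAi and control and none passed. Within vg the called fall was thus at one intron, flanked by clean introns of 4226 nt at 8.85%, 10.1% and 9.07% and of 4674 nt at 8.14%, 10.02% and 7.58% with ecd plus Xrp1 RNAi, with ecd RNAi and in controls.

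**Figure D4:**
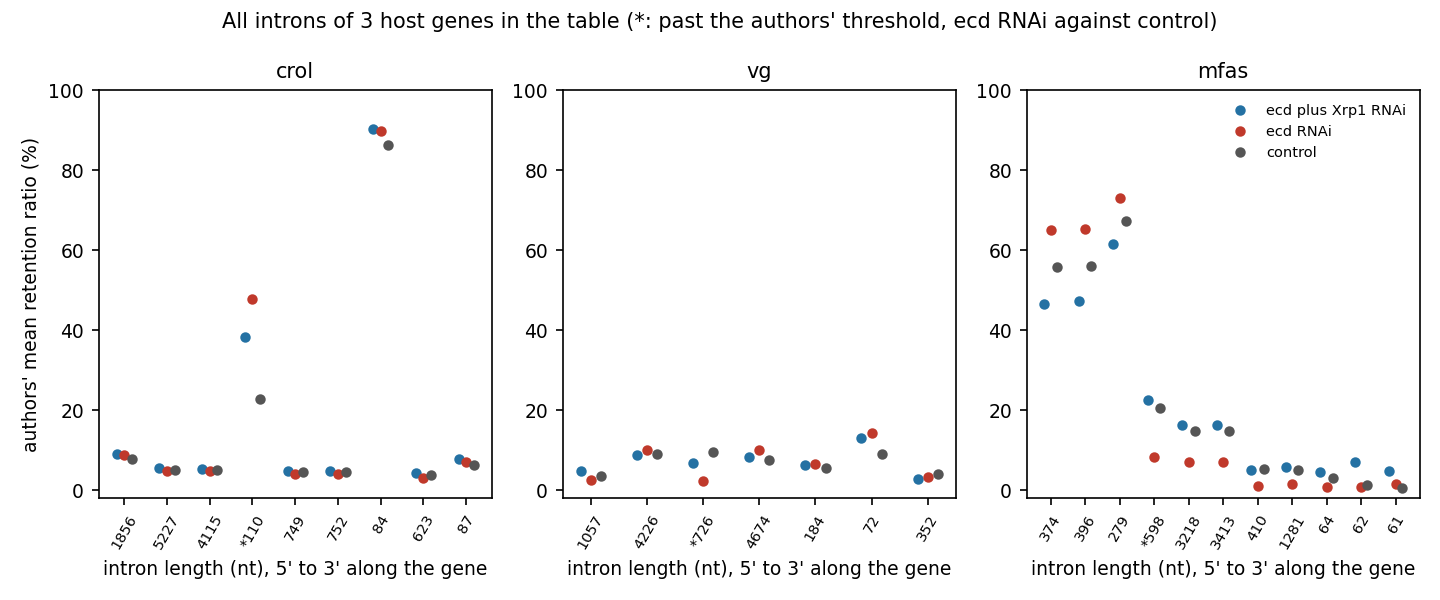
Mean retention ratio (y axis, %) of every intron of crol, vg and mfas in the table (x axis, length in nt, ordered 5′ to 3′ along the gene), for ecd plus Xrp1 RNAi in blue, ecd RNAi in red and control in grey. A star marks the intron past the authors' threshold for ecd RNAi against control. In crol and vg the starred intron has the widest difference between ecd RNAi and control of the introns of its gene, though not the highest or lowest ratio in every group. In mfas the other long clean introns are also lower with ecd RNAi, and those of 3413 and 3218 nt contain the starred one.

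One intron passed for ecd plus Xrp1 RNAi against control alone. It is the first of 9 introns of Zmynd8, which encodes a chromatin reader with a MYND zinc finger, and it was named because it is 1 of only 2 in that comparison, after its values were seen. It has 136 nt in the 5′ UTR on arm 3R, positions 31669681 to 31669816 on the plus strand. Its ratio was 10.2% with ecd plus Xrp1 RNAi, 5.85% with ecd RNAi and 2.57% in controls, with an adjusted p of 0.0143 for ecd plus Xrp1 RNAi and 0.383 for ecd RNAi, each against control, in the authors' deposited table. The 8 other Zmynd8 introns had lower mean ratios with ecd RNAi than in controls, with differences of −5.68 to −0.36 points, and none passed. With ecd plus Xrp1 RNAi against control, where the first intron was called, most of these 8 were higher and some lower. None of them passed there either. The intron of 63 nt had 13.3% with ecd plus Xrp1 RNAi and 7.52% in controls, and that of 118 nt had 8.31% and 12.3%.

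Whether the gene changed along with its intron was read from the authors' normalized counts, tested per gene with limma on log2(value + 1) over 10179 genes. Of the 970 host genes, 960 were tested. With ecd RNAi against control, 552 hosts passed (57.5%), 289 higher and 263 lower, where 47.8% of all tested genes passed, 22.4% higher and 25.4% lower. Against control, ecd plus Xrp1 RNAi gave 39 hosts that passed, 16 higher and 23 lower, beside 4.39% of all tested genes, 2.29% higher and 2.1% lower. With 1 library left out this count was 20 and 23 without ecd plus Xrp1 RNAi library 2 or 3, 60 without ecd RNAi library 3, and 22, 24 and 23 without control library 1, 2 or 3. It was 77 with quantile normalization and 101 in the authors' deposited table. Between the RNAi groups 544 hosts passed, 300 higher and 244 lower with added Xrp1 RNAi, beside 47.3% of all tested genes, 26.7% higher and 20.6% lower. The median log2 fold change of the hosts with ecd RNAi against control was 0.03, against −0.04 over all tested genes. All 8 introns called in the authors' deposited table for ecd RNAi against control lie in hosts that rose or did not pass, 6 and 2 of them, and none in the 263 hosts that fell. The 827 introns of hosts that rose had a median difference in ratio of −0.22 points between ecd RNAi and control, the 652 introns of hosts that fell 0.38 points, and the 1149 introns of hosts that did not pass −0.24 points.

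The genes with a called intron differed in their own level. Sarm had normalized counts of 3078, 2950, 3369 and 4709 in ecd plus Xrp1 RNAi libraries, 6901, 8110, 7495 and 6814 in ecd RNAi libraries, and 3253, 3448, 2843 and 3476 in control libraries. The ecd RNAi libraries lie above all others, and Sarm rose by a log2 fold change of 1.17 ± 0.13 (SE, n = 4 each, limma adjusted p = 8.38e-06) against control. The gene mfas had 1321, 1254, 1491 and 1653 with ecd plus Xrp1 RNAi, 3809, 5401, 5944 and 4018 with ecd RNAi, and 1449, 1549, 1248 and 1583 in controls. Here too the ecd RNAi libraries do not overlap with the others, and mfas rose with ecd RNAi against control by 1.70 ± 0.14 (log2, SE, n = 4 each, limma adjusted p = 7.88e-07). So mfas transcripts were more abundant with ecd RNAi in the samples where the mean ratios of its 5 long clean introns were lower.

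The level of vg did not pass with ecd RNAi against control. Its normalized counts were 5275, 5296, 5440 and 5602 with ecd plus Xrp1 RNAi, 4338, 4433, 3925 and 3656 with ecd RNAi, and 4541, 4687, 3959 and 4222 in controls. The ecd RNAi and control libraries overlap (log2 fold change −0.09 ± 0.07, SE, n = 4 each, limma adjusted p = 0.311), and the ecd plus Xrp1 RNAi libraries lie above both. With added Xrp1 RNAi, vg was higher than with ecd RNAi alone by 0.41 ± 0.07 (log2, SE, n = 4 each, limma adjusted p = 3.94e-04). Against control, the rise of vg with ecd plus Xrp1 RNAi (0.31 ± 0.07, limma adjusted p = 0.0242, n = 4 each) was lost in 5 of the fits that left out 1 library, namely control library 3 or 4 or ecd plus Xrp1 RNAi library 2, 3 or 4, with adjusted p from 0.0519 to 0.0751. The 5 genes listed as pouch markers, nub, rn, vg, sd and ap, were present in every group. They summed to 43728 to 50013 normalized counts per library with ecd plus Xrp1 RNAi, 33103 to 40999 with ecd RNAi and 42725 to 48965 in controls. Not all of them were lower with ecd RNAi. The counts of ap were 8778 to 11561 with ecd RNAi and 13513 to 16073 in controls. Those of sd were 8438 to 10016 and 10052 to 11175. The counts of nub, rn and vg overlapped between ecd RNAi and control. The part of the lower sum with ecd RNAi in the vg intron was not tested.

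The gene crol likewise did not pass, with normalized counts of 11619, 12076, 12861 and 15768 in ecd plus Xrp1 RNAi libraries, 11322, 11911, 11823 and 10127 in ecd RNAi libraries, and 11313, 12240, 10906 and 11326 in control libraries. The groups overlap, and the log2 fold change for ecd RNAi against control was −0.02 ± 0.09 (SE, n = 4 each, limma adjusted p = 0.877). So the crol intron had its higher ratio at a level of the gene that was not shown to differ.

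The other hosts of the risers rose with ecd RNAi against control. Hmt-1 averaged 1174 ± 60.2 with ecd plus Xrp1 RNAi, 1632 ± 144 with ecd RNAi and 1140 ± 86.5 in controls (SD, n = 4 each; limma adjusted p = 8.34e-05 for ecd RNAi against control). The averages of pic were 5730 ± 177, 8562 ± 673 and 5687 ± 160 in that order (SD, n = 4 each; limma adjusted p = 3.40e-06). Those of l(3)80Fg were 10165 ± 799, 8805 ± 214 and 6235 ± 781 (SD, n = 4 each; limma adjusted p = 3.12e-04), and this gene was also higher with ecd plus Xrp1 RNAi than in controls (limma adjusted p = 4.11e-04). Those of Ipk1 were 467 ± 77.8, 645 ± 40.0 and 507 ± 26.8 (SD, n = 4 each; limma adjusted p = 0.0128), a call that was lost without libraries 3 and 4 of control and ecd RNAi (limma adjusted p = 0.174). Fat body markers, 7 genes of another larval tissue, summed to 1799 to 2959 normalized counts per library with ecd plus Xrp1 RNAi, 1218 to 28767 with ecd RNAi and 1315 to 76585 in controls, the high sums being in libraries 3 and 4. No long clean intron lies in these 7 genes, and their part in the other results was not tested. The 2 glial markers repo and moody summed to 104 to 198 with ecd plus Xrp1 RNAi, 359 to 472 with ecd RNAi and 77.8 to 120 in controls. Only moody was higher with ecd RNAi, at 317 to 437 against 64.9 to 75.2 in controls. The counts of repo overlapped, at 10.3 to 41.9 with ecd RNAi and 12.9 to 49.4 in controls. The 2 tracheal markers trh and btl summed to 1970 to 2535 with ecd plus Xrp1 RNAi, 1285 to 1771 with ecd RNAi and 2144 to 2317 in controls. The 5 hemocyte markers summed to 1054 to 1295, 1326 to 1611 and 1044 to 2009, and the 3 of adult muscle precursors to 3617 to 4148, 3132 to 3749 and 3378 to 3827, and none of the listed markers was at 0 in a whole group.

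**Figure D5:**
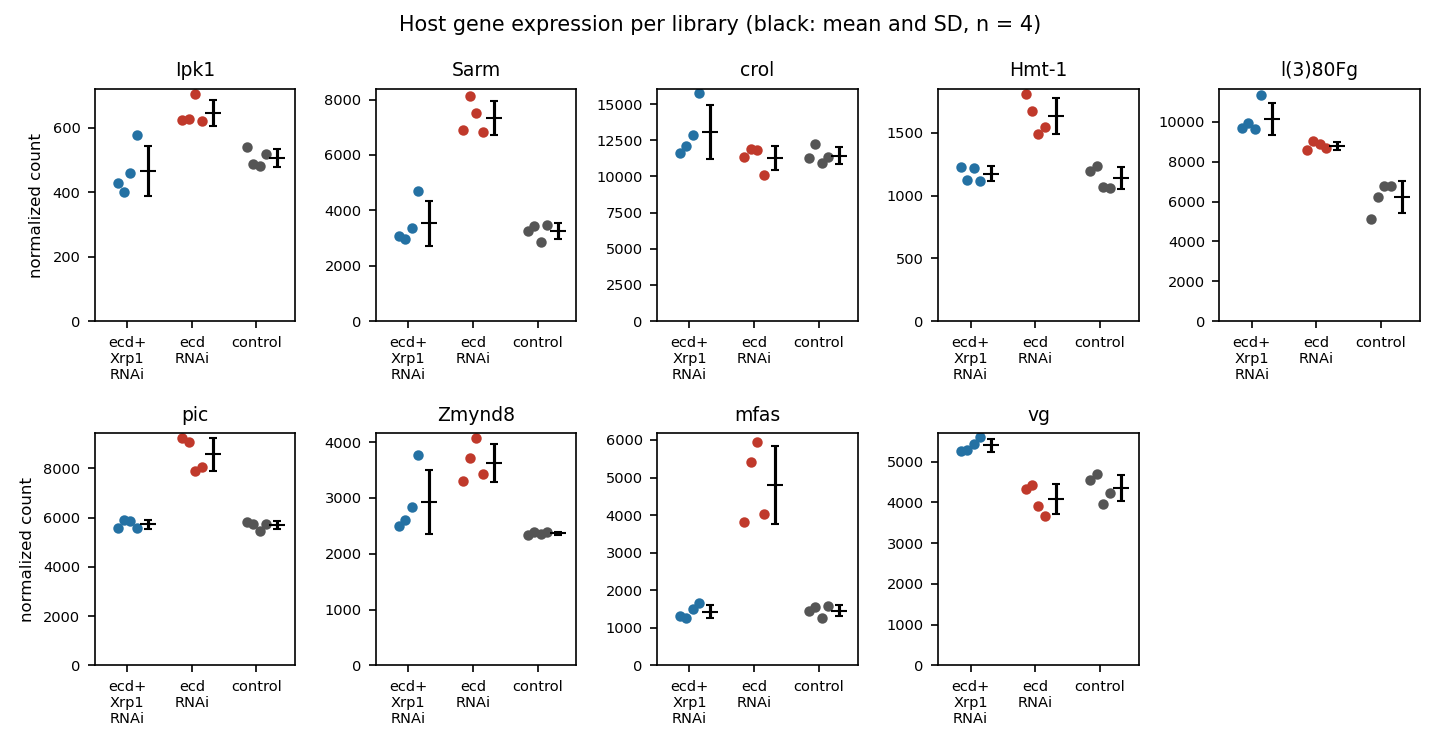
Normalized count per library (y axis) of the 9 genes that hold a called long clean intron, for ecd plus Xrp1 RNAi, ecd RNAi and control from left to right in each panel. Points are libraries, and the black bar is the mean with its SD over 4 libraries. Sarm and mfas stand apart with ecd RNAi, with means of 7330 and 4793, while the libraries of crol overlap.

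The hosts were also read by lists of genes of known function. The analysed table holds 0 introns of any class from the listed cytosolic ribosomal protein genes and snoRNA hosts, so these lists say nothing of long clean introns. Of the lists that are in the table, oxidative phosphorylation and fat body have no member, 1 member lies in a core spliceosome gene (Sf3b3), 1 in a proteasome gene (Rpn2) and 1 in a gene of nonsense-mediated decay (Smg5). The table holds 71 introns of oxidative phosphorylation genes, of which 12 passed for ecd RNAi against control in the authors' deposited table, and all of these are of other classes or lengths. The sets with most members are those of wing patterning with 70 introns in 16 genes, SR and hnRNP splicing factors with 51 in 10, and Hippo, polarity and junction genes with 39 in 9. The intron of vg is the one long clean intron of these lists that passed in the authors' deposited table for ecd RNAi against control.

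In wing patterning genes, 29 introns had a higher and 41 a lower mean ratio with ecd RNAi than in controls, with a median difference of −0.20 points beside −0.06 points over all long clean introns. Of the 12 introns in Ser, the gene of a Notch ligand, 10 were lower, and of the 13 in hth, a homeobox gene of the hinge, 9 were lower. Both introns of rn (rotund), a zinc-finger gene of the pouch, were lower, by a median difference of −7.60 points. All 4 introns of salm, a Dpp target, were higher, with a median difference of 0.59 points, as were both of hh, which encodes the Hedgehog ligand, with 0.60 points. The salm introns of 287 and 291 nt share their values. The intron of nub, 5572 nt, had a ratio of 12.4% with ecd RNAi and 7.79% in controls. The adjusted p of these introns was 0.365 or higher in the authors' deposited table, so none of these directions passed.

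In SR and hnRNP splicing factors, 31 introns had a higher and 20 a lower mean ratio with ecd RNAi, with a median difference of 0.37 points. The gene heph, which encodes the fly polypyrimidine tract binding protein, holds 17 of them, 11 of which were higher with ecd RNAi, with a median difference of 1.06 points. It also holds the longest member, a 5′ UTR intron of 63750 nt at 11.7% with ecd plus Xrp1 RNAi, 11.98% with ecd RNAi and 10.6% in controls. All 3 introns of glo, an hnRNP F/H gene, were higher, by 1.87 to 6.11 points, and all 3 of Rm62, a DEAD-box helicase gene, were lower, with differences of −12.8 to −1.01 points. These are not separate measurements, since the glo intron of 1248 nt contains the shorter ones. The Rm62 introns of 1922 and 1934 nt share their values. The smallest adjusted p among the 51 introns was 0.105 in the authors' deposited table. In Hippo, polarity and junction genes, 25 of 39 introns were higher with ecd RNAi and the median difference was 0.72 points. There, all 7 introns of l(2)gl, a tumour suppressor of cell polarity, were higher by 1.62 to 6.12 points, and the 14 of scrib, its partner, were 7 higher and 7 lower.

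None of the introns of ecdysone response genes passed. Of 14 introns in 4 genes, 3 had a higher and 11 a lower mean ratio with ecd RNAi than in controls, where 48.6% of all long clean introns were higher, with a median difference of −3.28 points and a smallest adjusted p of 0.341 in the authors' deposited table. All 5 introns of Eip75B, a nuclear receptor gene induced by ecdysone, were lower by a median difference of −4.20 points, and all 4 of ImpE1, another ecdysone-induced gene, by −3.92 points, so that 2 genes held most of the lower introns. In EcR, the ecdysone receptor gene, 1 of 2 introns was higher, and in Eip74EF, an ETS factor gene, 2 of 3. Eip75B and ImpE1 were themselves lower with ecd RNAi than in controls, and the levels of EcR and Eip74EF are not given here. Eip75B averaged 9870 ± 3036 normalized counts with ecd plus Xrp1 RNAi, 5843 ± 352 with ecd RNAi and 10012 ± 1213 in controls (SD, n = 4 each, limma adjusted p = 0.00135 for ecd RNAi against control). ImpE1 averaged 6927 ± 1754, 1003 ± 327 and 6998 ± 686 in that order (SD, n = 4 each; limma adjusted p = 9.64e-07). In ecd plus Xrp1 RNAi discs against control, 9 of the 14 introns were higher, with a median difference of 0.97 points.

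The remaining lists are small. In genes tied to Xrp1, the intron of Xrp1 itself and 3 of hid, a cell death activator, were all lower with ecd RNAi. The Xrp1 intron, the first of 4, has 797 nt in the 5′ UTR on arm 3R, positions 18918626 to 18919422 on the plus strand. Its ratio was 17.4% with ecd plus Xrp1 RNAi, 11.3% with ecd RNAi and 15.2% in controls (adjusted p = 0.623 for ecd RNAi against control, the authors' deposited table), in discs where the transcript rose with ecd RNAi. No long clean intron of ecd, Prp8 or Irbp18 is in the table. The list of JNK pathway and target genes had 4 of 11 introns higher with ecd RNAi, all 11 in Pvr, Mmp1 and cher. Cytoskeletal genes had 5 of 11, cell cycle genes 3 of 8, autophagy and V-ATPase genes 3 of 6, and translation factors 6 of 7. The 2 introns of cher are counted in both the JNK and the cytoskeletal list. Among the cytoskeletal genes, all 4 introns of Tm1, a tropomyosin gene, were higher and all 4 of Dhc64C, the dynein heavy chain gene, were lower. A list of tracheal, glial and muscle precursor genes, wider than the markers given above, held 29 introns, 9 higher and 20 lower. Of these, 7 lie in how, which is also in the list of SR and hnRNP splicing factors. Hemocyte genes held 2, 1 higher and 1 lower. None of the introns of these lists passed in the authors' deposited table.

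Genes with many long clean introns show how far the introns of one transcript unit go together. Both Rbfox1, a splicing regulator gene, and par-1, a polarity kinase gene, hold 18. In par-1, 2 of the 18 had a higher ratio with ecd RNAi than in controls and the median difference was −2.97 points, while in Rbfox1 10 were higher and the median was 0.54 points. In klar, 1 of 13 was higher with ecd RNAi and the median was −0.90 points, and in shot, which encodes a spectraplakin, 4 of 17 with −0.86 points. On the other side, jbug, a filamin gene, had 7 of 12 higher with a median of 2.15 points and Trpm, a cation channel gene, 9 of 14 with 1.75 points. None of these introns passed in the authors' deposited table, and introns of one gene can overlap. The host par-1 averaged 11742 ± 932 with ecd plus Xrp1 RNAi, 12375 ± 418 with ecd RNAi and 11190 ± 266 in controls (SD, n = 4 each; limma adjusted p = 0.0609 for ecd RNAi against control).

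At the top of the range, 57 introns with ecd plus Xrp1 RNAi, 67 with ecd RNAi and 58 in controls had a mean ratio over 50%, and 3, 5 and 3 stood at 0%. The 5 with the highest control ratios were 1 of CG42673, 3 of Doa, a kinase gene, and 1 of par-1. All 5 were at 96.9% or more with ecd plus Xrp1 RNAi, 95.6% or more with ecd RNAi and 99.04% or more in controls, with mean counts of 8.25 to 10.8. These ratios were near 100% in every group, but few reads set them. The Doa introns of 2063 and 2187 nt share a 5′ splice site, so they are not separate from each other. At the other end of the length range, after heph, Parp1 had an intron of 61032 nt at 3.26% with ecd plus Xrp1 RNAi, 5.66% with ecd RNAi and 2.75% in controls. Antp, a Hox gene, had one of 60111 nt at 4.95%, 4.27% and 5.18% in that order. No member of 3000 nt or longer passed in the authors' deposited table in any of the 3 comparisons.

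Some wide differences did not pass, and these were chosen after their values were seen. Intron 1 of fru, the BTB transcription factor gene of the sex determination cascade, had 60.5% with ecd plus Xrp1 RNAi, 61.0% with ecd RNAi and 40.6% in controls (adjusted p = 0.137 for ecd RNAi against control, the authors' deposited table). Intron 1 of scaf, a serine protease homologue gene, had 10.1%, 26.6% and 11.1% in that order (adjusted p = 0.202, the authors' deposited table). In the other direction, intron 6 of lola, a BTB gene with many alternative last exons, had 59.6%, 46.8% and 70.8% (adjusted p = 0.232, the authors' deposited table). Intron 7 of ss (spineless), 110 nt long, was listed at 0% with ecd RNAi, with 9.63% in ecd plus Xrp1 RNAi discs and 14.1% in controls (adjusted p = 0.0697 for ecd RNAi against control, the authors' deposited table). The mean counts behind the lola and ss introns were 9.96 and 8.67, where few reads set the ratio.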

How the data were processed

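RNA of 12 wing disc samples, 3 groups of 4, was sequenced from stranded libraries depleted of ribosomal RNA, per the labels' protocols, which differ on single or paired reads. Reads were handled by the authors with kallisto 0.46.1, cutadapt 3.5, FastQC and DESeq2 1.34.0 on build BDGP6, in an order that the submitters' processing notes do not give. The tool that made the retention ratios and the use of strand in counting are not given in the sources used here. Per the file headers, the authors' intron table holds retention ratios as a fraction from 0 to 1, as group means, with mean counts as a signal, log2 fold changes and adjusted p-values. Another table of the authors holds log2 fold changes, test statistics as a score and p-values per gene, and its adjusted p served as an alternative. For introns, the deposited log2 fold changes run control over RNAi and were not printed; differences are RNAi minus control, from the means, and the 2 directions disagree for 101, 132 and 123 members in the 3 comparisons, none of them named as called. No label matched the names of its 12 columns of ratios per sample, which were left unused, so the planned fit on introns was replaced by the authors' calls.

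The gene table holds the authors' deposited normalized counts, a signal on a common scale, which summed over genes to 28.9 to 32.1 M, 30.4 to 32.8 M and 26.4 to 28.9 M per library with ecd plus Xrp1 RNAi, with ecd RNAi and in controls. Raw depth is unknown. Genes with a mean of at least 10 entered limma 3.58.1 in R 4.3.3 on log2(value + 1), which understates changes of low genes, with a term per group over all 12 libraries; tests were two-sided with Benjamini-Hochberg adjustment and a threshold of 0.05, and were checked on simulated data. The p-values measure the spread between samples. Same-numbered control and ecd RNAi libraries deviated together (r 0.235 to 0.559), and the replicate block paired them by that number. Those of ecd plus Xrp1 RNAi did not deviate together with same-numbered libraries of either group. The numbers are those of the sample titles, and the authors' own library names carry other numbers for most. By the authors' numbers, most ecd plus Xrp1 RNAi libraries were set beside libraries of another number. Pairs by those numbers were therefore not checked for them. Libraries of different title number were not compared, so whether the samples were prepared as pairs was not tested.

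All 17817 introns matched introns of the Ensembl annotation of BDGP6, and coordinates are 1-based. Members and lists were chosen with earlier results of these data known. Named introns were the 6 largest rises and falls among those called, all members of ecd, Prp8, Xrp1 and Irbp18, and the 5 with the highest control ratio. Other named introns, among them the longest, were chosen after their values were seen, as were the length classes. No rule set in advance picked which genes to describe within the lists or among hosts with many members. Alternatives were another threshold, length limit, filter, pseudocount and normalization, a replicate block, and leaving out libraries; leaving out control and ecd RNAi libraries 3 and 4 was added after seeing the data. No sequence is printed here.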

Additional observations from a re-analysis of the deposited data

Results flagged for a closer look

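Among 19 named genes in 3 groups, 57 sets of 4 libraries, 6 held a library far from the other 3; chance gives about 1 in 20. In ecd RNAi discs, Ipk1 had its highest normalized count, 704.6, in library 3, against 622.4 to 627.9 in the others. The other 5 were the same library, number 4 with ecd plus Xrp1 RNAi, which was the highest for Prp8 at 15780, Doa at 6592, Eip75B at 14379, par-1 at 13127 and ss at 1614. Long clean introns of Doa, Eip75B, par-1 and ss are described above by group means, in which the share of this library cannot be read.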

How the results depend on the processing

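For ecd RNAi against control, the authors' deposited table called 8 long clean introns, and 5 at an adjusted p under 0.01 or with a length limit of 200 nt. For ecd plus Xrp1 RNAi against control it called 2, and 1 at 0.01 and 0 at 200 nt, since the introns of crol and Zmynd8 are shorter. Between the RNAi groups it called 2, and 0 at 0.01. A mean ratio of at least 5% changed no count. The median difference for ecd RNAi against control, −0.06 points, was −0.15 as a mean, −0.10 from 200 nt and −0.14 with the 5% minimum. Between ecd plus Xrp1 RNAi and control, 0.0147 points became 0.0354, 0.0287 and −0.01 under the same changes, and between the RNAi groups 0.11 became 0.19, 0.15 and 0.17. Of host genes, 552 passed for ecd RNAi against control and 502 to 606 with 1 library left out. For ecd plus Xrp1 RNAi against control, 39 passed and 20 to 60 with 1 library left out: 22, 24 and 23 without control library 1, 2 or 3, 20 and 23 without ecd plus Xrp1 RNAi library 2 or 3, and 60 without ecd RNAi library 3. For this comparison 77 passed under quantile normalization and 101 in the authors' deposited table; the cause was not tested. Between the RNAi groups, 544 passed and 493 to 581 with 1 library left out. Without libraries 3 and 4 of control and ecd RNAi, 434, 39 and 451 hosts passed in the 3 comparisons. The replicate block gave 562, 36 and 544 hosts. For ecd RNAi against control it paired those 2 groups by replicate number and left ecd plus Xrp1 RNAi unpaired. In the other 2 comparisons it blocked all 3 groups by title number, although ecd plus Xrp1 RNAi libraries had not deviated together with those of the same title number. Of named hosts the replicate block moved only the call of l(3)80Fg between the RNAi groups, which it made pass at an adjusted p of 0.0464 (limma). No paired analysis was possible for introns because their columns carry no replicate numbers, and transforms, leaving out libraries, the fit of 2 groups and array weights were not run on them for the same reason.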
